A study of Mus musculus with 9 samples.

Results

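Dixdc1 and 9 core genes of the Wnt/beta-catenin pathway (Ctnnb1, Tcf7, Tcf7l2, Lef1, Axin1, Axin2, Apc, Gsk3b and Dvl2) were followed across 9 libraries of mouse acute myeloid leukemia (AML) cells. They were chosen by gene name, as 10 of the 55536 genes of the expression table. No rule on their values was used, but earlier results of these data were known. The leukemia was started by MLL-AF9, a fusion oncogene carried with GFP by a retrovirus, in c-kit+ bone marrow cells of C57BL/6J mice. The donors were wild-type (WT) or IRF7-/- mice, so the WT and IRF7-/- groups come from leukemias started in different donors. Genotype and starting leukemia therefore cannot be told apart in comparisons between them. GFP+ leukemia cells were injected without irradiation into recipients that were 6 to 8 weeks old, and on day 18 leukemia cells were sorted from bone marrow by c-kit, the surface receptor encoded by Kit. There were 3 libraries in each of 3 groups. AML-WT-c-kit- and its counterpart AML-WT-c-kit+ (c-kit- WT and c-kit+ WT below) have the genotype label control-GFP overexpression, and AML-IRF7-/--c-kit+ has the label IRF7-/--GFP overexpression. All 3 groups therefore carried the oncogene and GFP, the recipients' own marrow was intact, and the labels do not say how many primary leukemias or mice stand behind a library. The p-values below measure the spread between these libraries, which may be technical.

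Wnt proteins outside the cell bind Frizzled receptors and Lrp5 or Lrp6, and Dishevelled (Dvl) is recruited to the receptor. Without this signal a destruction complex built on Axin and Apc holds beta-catenin (Ctnnb1) so that casein kinase 1 and Gsk3 mark it for degradation, and with the signal beta-catenin enters the nucleus and works with TCF/LEF factors. Dixdc1 carries a DIX domain, the module through which Dishevelled and Axin proteins also join to each other, and acts as a positive regulator of the pathway. Axin2 is both an inhibitor in the destruction complex and a widely used target gene of beta-catenin. In MLL-AF9 leukemia beta-catenin is known for its part in leukemia stem cells.

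Values are TPM (transcript shares scaled to a fixed total), which correct for gene length and library total but keep no read depth, so no counting interval can be given. Library totals lay between 987468 and 992231 TPM, and 12845 to 13151 genes reached 1 TPM in each library. Kit was 0.520 to 3.03 TPM in c-kit- WT, 50.7 to 58.5 TPM in c-kit+ WT and 70.3 to 85.7 TPM in AML-IRF7-/--c-kit+. Irf7, the gene named in the knockout label, was 5.31, 3.91 and 3.36 TPM in c-kit+ WT and 12.8, 5.97 and 7.95 TPM in those labelled AML-IRF7-/--c-kit+. This goes against the label (log2 fold change 0.89, SE 0.27, limma adjusted p = 0.0321; at most 0.0949 with a library left out). The knockout replaced exons 2 and 3 with a PGK-beta-geo cassette, so a gene-level value also holds reads from outside the deleted part. These libraries are called "labelled IRF7-/-" below, a name that rests on the label. The top 10 genes by level made up 13.1 to 17.3% of each c-kit+ WT library and 9.39 to 10.3% of the other 6. Within groups the libraries correlated at r of 0.973 to 0.984 across 13962 genes, which are not independent replicates.

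Dixdc1 lies on the minus strand of chromosome 9 (GRCm38, chr9:50662752-50739517, 76766 bases) and no other annotated gene overlaps it. GENCODE M21 gives it 12 transcripts, 6 of them protein-coding, and RefSeq (GRCm38.p6) gives 2 start sites that lie 9751 bases apart. The 250 bases before each start are shown, with those of Axin2, because these 2 genes carried the largest differences among the 10. Sequences run 5′ to 3′ on the gene's strand, and CG dinucleotides are in capitals.
Dixdc1, upstream start, chr9:50737736-50737985 (-): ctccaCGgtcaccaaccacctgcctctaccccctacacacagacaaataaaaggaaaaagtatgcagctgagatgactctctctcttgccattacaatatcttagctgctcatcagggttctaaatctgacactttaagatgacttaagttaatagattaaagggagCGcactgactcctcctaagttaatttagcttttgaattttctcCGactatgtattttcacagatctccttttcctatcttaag
Dixdc1, internal start, chr9:50727985-50728234 (-): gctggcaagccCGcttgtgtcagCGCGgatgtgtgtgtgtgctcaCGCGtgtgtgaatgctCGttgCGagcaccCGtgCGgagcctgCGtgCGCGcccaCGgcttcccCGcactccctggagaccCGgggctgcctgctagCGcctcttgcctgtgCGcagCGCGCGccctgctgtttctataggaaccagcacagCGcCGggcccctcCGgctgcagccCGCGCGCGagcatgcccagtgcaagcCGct
Axin2, chr11:108920099-108920348 (+): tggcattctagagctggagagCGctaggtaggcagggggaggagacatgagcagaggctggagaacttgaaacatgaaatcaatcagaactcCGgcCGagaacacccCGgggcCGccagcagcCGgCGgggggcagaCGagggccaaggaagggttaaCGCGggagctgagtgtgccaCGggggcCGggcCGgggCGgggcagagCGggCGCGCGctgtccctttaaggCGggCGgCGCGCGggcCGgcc
The window of the upstream Dixdc1 start held 3 CG dinucleotides, that of the internal start 28 and that of Axin2 24, against a median of 6 over 32851 RefSeq windows of this length. The TCF/LEF core CTTTGA, on either strand, was in none of these 3 windows and in 13.8% of all windows. The interferon response element core GAAANNGAAA, the kind of letters that IRF proteins bind, was in none of the 3 and in 2.98% of all windows. Windows were given for 8 of the 10 genes (15 windows), with none for Axin1 and Apc, and CTTTGA occurred in 2 of the 15, at Gsk3b and at 1 of 4 Lef1 starts.

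Dixdc1 was also the target of a quantitative PCR assay of the study, and the primers show which transcripts that assay could see.
Forward primer: agaacagaacagatgagccagact
Reverse primer: gtcctgattctcctccacactct
Both primers matched 5 of the 12 Dixdc1 transcripts, including 3 of the 6 protein-coding ones, with an amplicon of 299 bases, and matched no transcript of another gene. The expression table has 1 value per gene and does not say which start or transcript was in use.

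Dixdc1 was close to 0 in WT cells and present in the labelled IRF7-/- cells. It was 0.09, 0.07 and 0.06 TPM in c-kit- WT libraries 1, 2 and 3, and 0.07, 0.11 and 0.41 TPM in c-kit+ WT. It was 3.02, 2.38 and 3.42 TPM in the labelled IRF7-/- libraries. The lowest labelled library was thus above every WT library, while the 2 WT groups overlapped and 1 library, c-kit+ WT replicate 3, stood above the other 5. The mean in the labelled IRF7-/- libraries was 14.9 times that of c-kit+ WT on the TPM scale, and 32.7 times without c-kit+ WT replicate 3 (a ratio added after the values were seen). On the log2(TPM + 1) scale used for all tests, which understates changes of low genes, the log2 fold change was 1.72 (SE 0.18, limma adjusted p = 0.000641). It was 1.87 against c-kit- WT (SE 0.15, limma adjusted p = 9.36e-05). Without c-kit+ WT replicate 3 or any other single library the first value stayed between 1.63 and 1.85, and with 0.1 added in place of 1 it was 3.52 (4.12 against c-kit- WT). Between the WT groups Dixdc1 was under the filter (1 TPM or more in 3 or more of the 6 libraries compared), and a fit without the filter gave 0.15 (SE 0.11, limma adjusted p = 0.462). Exact two-sided permutation tests of single genes could not go below p = 0.1 with 3 libraries against 3, and gave that value for Dixdc1 in both comparisons with the labelled libraries.

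Changes of this kind were common in the series. In the labelled IRF7-/- libraries against c-kit+ WT, 31.9% of 13238 tested genes were higher at an adjusted p under 0.05 and 16.1% were lower, and 6.30% were higher and 5.39% lower by at least 1 on the log2 scale as well. The rise of Dixdc1 ranked 320 of these genes by log2 fold change. For 59.1% of them the libraries of the 2 groups did not overlap. That share was 54.4% between the WT groups and 67.1% between the labelled libraries and c-kit- WT. The 3 labelled libraries were above all 6 WT libraries for 24.0% of the 13962 genes that reached 1 TPM in 3 or more of the 9 libraries. The labelled libraries were below all 6 for 14% of these genes. A nearer match to the Dixdc1 pattern, under 0.5 TPM in all 6 WT libraries and at least 1 TPM in all 3 labelled ones, was met by 121 genes (0.867%), Dixdc1 and Axin2 among them; these limits were set with the values of Dixdc1 in view. Because Dixdc1 and Axin2 passed the filter only through the libraries where they were high, their tests had to come out as differences, and no count over the genes that passed is used as support.

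**Figure D1:**
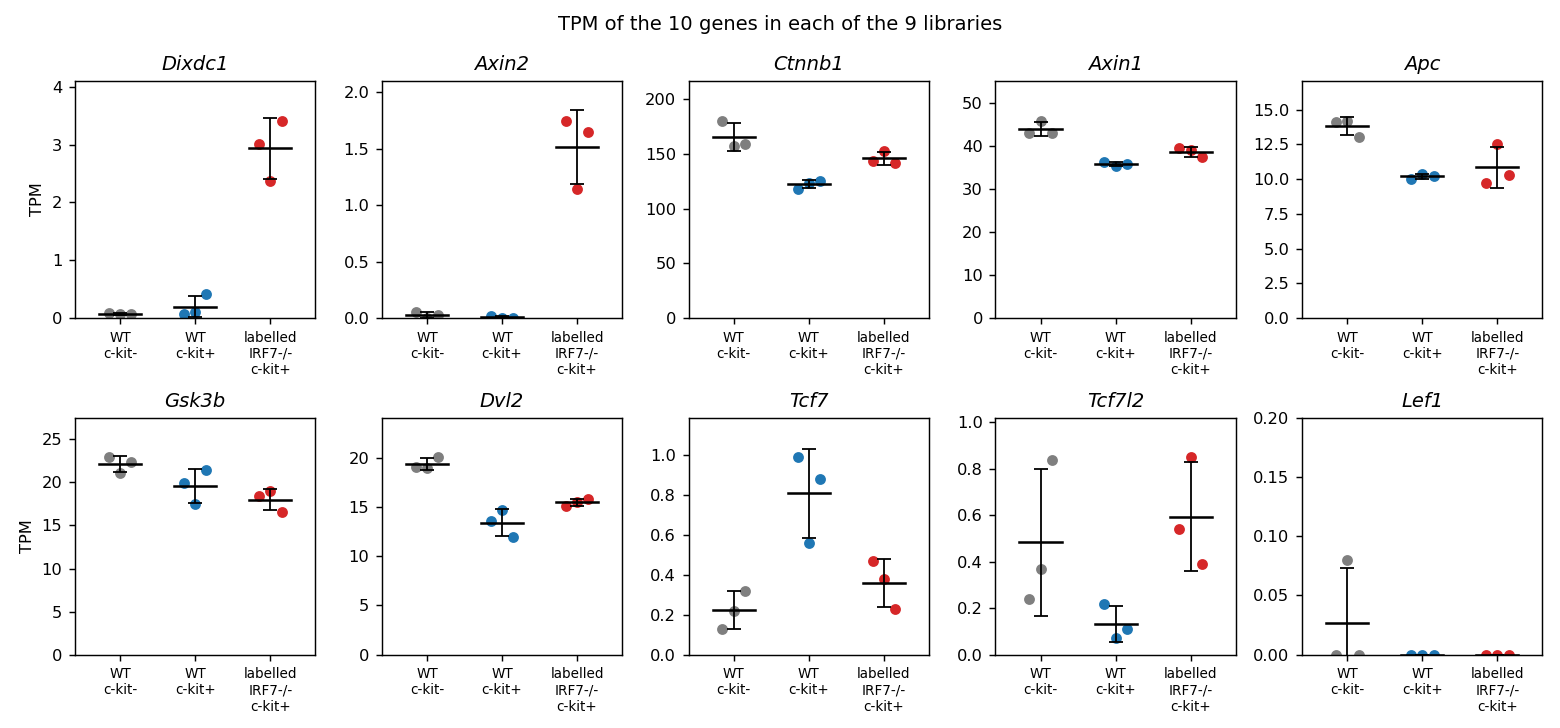
TPM (vertical axes, each from 0 with its own range) of each of the 10 genes in the 9 libraries, by group; points are libraries, the long bar is the mean and the error bar the SD (n = 3). Dixdc1 and Axin2 are near 0 in the 6 WT libraries and above 1 TPM in each labelled IRF7-/- library, Ctnnb1 is above 100 TPM everywhere, and Tcf7, Tcf7l2 and Lef1 stay under 1 TPM.

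Of the 6 genes with a DIX domain (Dixdc1, Dvl1, Dvl2, Dvl3, Axin1 and Axin2), Dixdc1 and Axin2 had all 3 labelled libraries above all 6 WT libraries and Dvl1 had them below. The shares over the 13962 genes given above were 24% above and 14% below. Axin2 was 0.05, 0.00 and 0.03 TPM in c-kit- WT and 0.02, 0.00 and 0.00 TPM in c-kit+ WT. It was 1.75, 1.14 and 1.65 TPM in the labelled IRF7-/- libraries. The groups did not overlap, and 3 of the 6 WT libraries listed the gene at 0. Its log2 fold change was 1.31 against c-kit+ WT (SE 0.16, limma adjusted p = 0.00113) and 1.28 against c-kit- WT (SE 0.16, limma adjusted p = 0.000528), and with 0.1 added in place of 1 it was 3.90 and 3.67. Under a filter of 5 TPM neither Dixdc1 nor Axin2 was tested, so both calls need a filter that keeps low genes.

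Axin1, the constitutive scaffold of the destruction complex, was far more abundant than Axin2 in all libraries. It was 42.9, 45.8 and 42.9 TPM in c-kit- WT, 36.3, 35.3 and 35.8 TPM in c-kit+ WT, and 39.4, 39.0 and 37.3 TPM in the labelled IRF7-/- libraries. The 3 groups did not overlap and their order was c-kit- WT, labelled IRF7-/-, c-kit+ WT. Between the c-kit+ groups the log2 fold change was 0.10 (SE 0.06, limma adjusted p = 0.162), so Axin1 did not pass where Axin2 rose.

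Dvl2, which passes the signal from the receptor, was 19.0, 19.0 and 20.1 TPM in c-kit- WT, 13.6, 14.7 and 11.98 TPM in c-kit+ WT, and 15.1, 15.5 and 15.9 TPM in the labelled IRF7-/- libraries. The labelled libraries lay just above c-kit+ WT without overlap, and the log2 fold change of 0.20 did not pass (SE 0.09, limma adjusted p = 0.122). Acadvl overlaps Dvl2 on the other strand at 27.8 to 35.2 TPM, and the library kit does not mark strand, so reads of these 2 genes may not be told apart where they overlap. The other Dishevelled genes were also expressed. Dvl1 fell from 28.7, 27.8 and 26.8 TPM in c-kit+ WT to 23.9, 24.9 and 23.4 TPM in the labelled libraries (log2 fold change -0.20, SE 0.06, limma adjusted p = 0.0394), a call that was lost when any single library was left out (adjusted p of 0.0512 to 0.121). Dvl3 was 15.1 to 17.4 TPM in both groups with a log2 fold change of 0.06 (SE 0.08, limma adjusted p = 0.597), which turned to -0.022 under quantile normalization and -0.026 when centred on the median gene.

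Ctnnb1, encoding beta-catenin itself, was the most abundant of the 10 genes in every library. It was 181, 157 and 159 TPM in c-kit- WT, 118, 124 and 125 TPM in c-kit+ WT and 144, 153 and 141 TPM in the labelled IRF7-/- libraries. The 3 groups did not overlap. The log2 fold change of the labelled libraries against c-kit+ WT was 0.25 (SE 0.05, limma adjusted p = 0.00895), a rise of 1.19 times. The median tested gene moved by 0.12 in the same direction, and relative to it Ctnnb1 was higher by 0.13. Under quantile normalization the value was 0.15 and no longer passed (limma adjusted p = 0.0865). Against c-kit- WT it was -0.18 (SE 0.07, limma adjusted p = 0.0619). The level of RNA does not report the amount of beta-catenin protein, which the destruction complex controls.

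Apc and Gsk3b, the other parts of the destruction complex followed here, did not pass between the c-kit+ groups. Apc was 14.1, 14.2 and 13.1 TPM in c-kit- WT, 9.99, 10.3 and 10.3 TPM in c-kit+ WT and 9.73, 12.5 and 10.3 TPM in the labelled IRF7-/- libraries. The c-kit+ groups overlapped, with a log2 fold change of 0.08 (SE 0.11, limma adjusted p = 0.599). That of Apc changed sign under both other scalings and without labelled replicate 2, whose 12.5 TPM stood above the other c-kit+ libraries. Gsk3b, the kinase, was 22.9, 21.1 and 22.4 TPM, then 20.0, 17.5 and 21.4 TPM, then 18.4, 19.0 and 16.6 TPM in the same order of groups. Its c-kit+ groups overlapped as well (log2 fold change -0.12, SE 0.10, limma adjusted p = 0.367). Its paralog Gsk3a was 77.5 to 80.7 TPM in c-kit+ WT and 86.4 to 89.2 TPM in the labelled libraries. Their log2 fold change was 0.14 (SE 0.05, limma adjusted p = 0.0449), was 0.02 relative to the median gene and did not pass when any single library was left out (adjusted p of 0.0742 to 0.141).

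Tcf7, Tcf7l2 and Lef1, the nuclear partners through which beta-catenin acts on genes, were under 1 TPM in all 9 libraries and under the filter. Lef1 was listed at 0 in 8 libraries and at 0.08 TPM in c-kit- WT replicate 2. Tcf7 was 0.13, 0.22 and 0.32 TPM in c-kit- WT, 0.99, 0.56 and 0.88 TPM in c-kit+ WT and 0.47, 0.38 and 0.23 TPM in the labelled IRF7-/- libraries. Tcf7l2 was 0.24, 0.37 and 0.84 TPM, then 0.22, 0.07 and 0.11 TPM, then 0.54, 0.85 and 0.39 TPM in the same order. The labelled libraries were below c-kit+ WT for Tcf7 and above it for Tcf7l2, with no overlap in either case. Of all tested genes, 59.1% had no overlap between these groups. Fitted without the filter, Tcf7 had a log2 fold change of -0.41 (SE 0.13, limma adjusted p = 0.0706) and Tcf7l2 one of 0.48 (SE 0.12, limma adjusted p = 0.0357) between the c-kit+ groups. The member of this family above 1 TPM was Tcf7l1, best known as a repressor of Wnt target genes. It was 0.02, 0.28 and 0.04 TPM in c-kit- WT, 3.27, 5.0 and 3.90 TPM in c-kit+ WT and 1.67, 1.24 and 2.11 TPM in the labelled libraries. Tcf7l1 was thus lower in the labelled libraries than in c-kit+ WT (log2 fold change -0.92, SE 0.19, limma adjusted p = 0.00754).

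**Figure D2:**
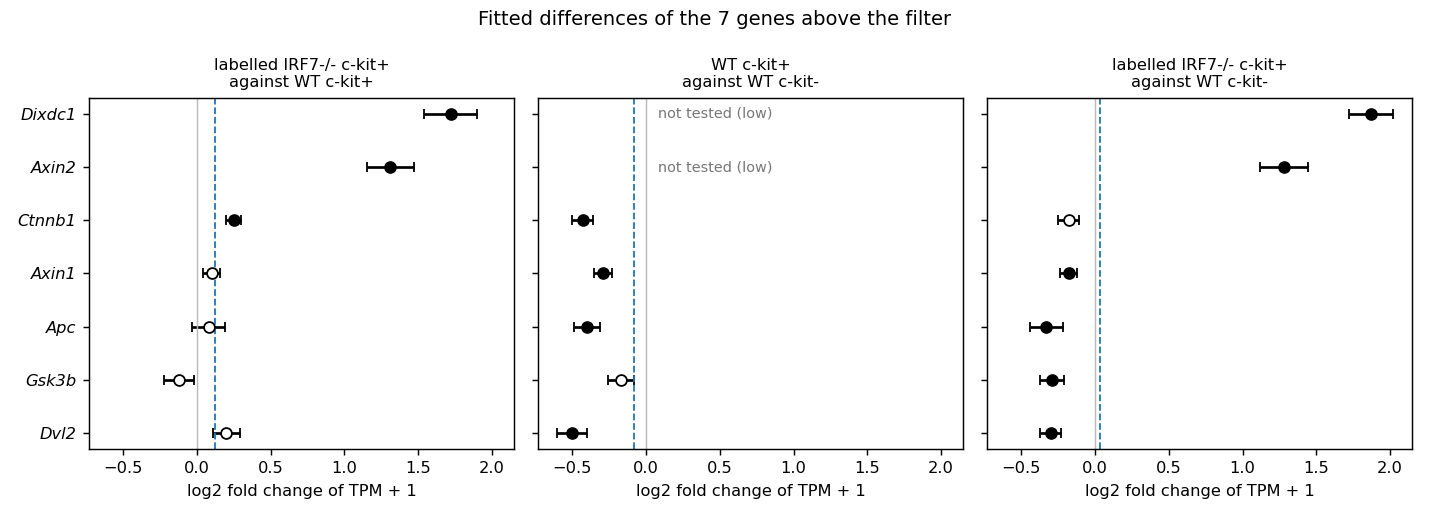
Log2 fold change of TPM + 1 (horizontal axis) of the 7 genes that passed the filter in a comparison, in 3 comparisons that share groups; bars are SE, filled points had a limma adjusted p under 0.05, and the dashed line is the median of all tested genes. Dixdc1 and Axin2 lie above 1 against both WT groups, and the other 5 genes lie between -0.50 and 0.25 over the 3 panels.

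Between the WT groups, which differ by the c-kit sort, the abundant core genes were lower in the c-kit+ cells. Ctnnb1 had a log2 fold change of -0.43 (SE 0.07, limma adjusted p = 0.00315), Dvl2 of -0.50 (SE 0.10, limma adjusted p = 0.00619), Apc of -0.40 (SE 0.09, limma adjusted p = 0.00943) and Axin1 of -0.29 (SE 0.06, limma adjusted p = 0.00879). Gsk3b had -0.17 (SE 0.09, limma adjusted p = 0.195). In this comparison 27.6% of 13261 tested genes were lower and 14.0% higher at this threshold, and 9.61% lower and 4.83% higher by at least 1 as well, and none of the 10 genes reached that size. The median gene moved by -0.08. When each library was centred on its median gene Ctnnb1 and Dvl2 stayed lower, and Apc and Axin1 did not pass (limma adjusted p = 0.0501 and 0.118).

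Against c-kit- WT, which is part of the comparison above as well, the labelled IRF7-/- libraries were lower for Apc (log2 fold change -0.33, SE 0.11, limma adjusted p = 0.0450), Dvl2 (-0.30, SE 0.07, limma adjusted p = 0.0109), Gsk3b (-0.29, SE 0.08, limma adjusted p = 0.0226) and Axin1 (-0.18, SE 0.06, limma adjusted p = 0.0373). Dvl2 stayed lower under both other scalings and without any single library, and the other 3 did not pass under either scaling. Without c-kit- WT replicate 1, labelled replicate 1 or labelled replicate 3, 3 of the 10 genes passed (Dixdc1, Axin2 and Dvl2), against 6 with all libraries. Here 30.7% of 13510 tested genes were higher and 28.7% lower, and 8.40% higher and 11.9% lower by at least 1 as well. These 2 groups differ in the c-kit sort, in the label and in the starting leukemia. The shares of each in a difference cannot be told apart.

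Beyond the 10 genes, 130 other Wnt pathway genes of the table were read by role, and 57 of them were under 1 TPM in all 9 libraries. Of the 66 tested between the labelled IRF7-/- and c-kit+ WT libraries, 16 were higher and 15 lower at an adjusted p under 0.05, shares of 24.2% and 22.7% beside 31.9% and 16.1% of all tested genes, with a median log2 fold change of 0.02 against 0.12. Under quantile normalization the split was 13 higher and 20 lower, when centred on the median gene it was 13 and 19, and without c-kit+ WT replicate 3 it was 12 and 10. Between the WT groups 7 of 65 were higher and 20 lower (10.8% and 30.8%, beside 14.0% and 27.6% of all tested genes), with a median of -0.16 against -0.08, and the split was 14 and 14 under quantile normalization and when centred on the median gene. Against c-kit- WT the labelled libraries had 15 of 66 higher and 28 lower (22.7% and 42.4%, beside 30.7% and 28.7% of all tested genes), with a median of -0.09 against 0.03, and the split was 19 and 22 under both other scalings.

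Outside the cell the pathway was sparse. Of 21 genes for Wnt ligands and their secretion, 18 were under 1 TPM in every library. Wls, which carries Wnt proteins to the cell surface, was 55.8 to 68.6 TPM. The ligand gene Wnt6 was 0.64, 1.27 and 1.24 TPM in c-kit- WT, 0.22, 0.09 and 0.00 TPM in c-kit+ WT and 1.54, 1.58 and 1.51 TPM in the labelled IRF7-/- libraries. It rose between the c-kit+ groups (log2 fold change 1.21, SE 0.15, limma adjusted p = 0.00113), having passed the filter through the labelled libraries alone. Rspo1, a secreted amplifier of Wnt signals, was 4.43, 4.90 and 8.49 TPM, then 0.46, 2.53 and 0.29 TPM, then 10.9, 8.11 and 8.74 TPM, and was higher in the labelled libraries than in c-kit+ WT by 2.44 (SE 0.38, limma adjusted p = 0.00257). One of its receptor genes, Lgr4, was 1.55 to 1.58 TPM in c-kit+ WT and 3.05 to 3.24 TPM in the labelled libraries (log2 fold change 0.69, SE 0.11, limma adjusted p = 0.00340). Lgr6, a more abundant receptor gene of this kind, had means of 6.92 TPM in c-kit+ WT and 5.84 TPM in the labelled libraries. It did not pass (log2 fold change -0.22, SE 0.12, limma adjusted p = 0.172).

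Among 16 receptor genes 5 were tested between the c-kit+ groups, and Fzd5 (log2 fold change -0.43, SE 0.13, limma adjusted p = 0.0305) and Ptk7 (-0.55, SE 0.18, limma adjusted p = 0.0405) were lower in the labelled IRF7-/- libraries. Ptk7 passed the filter through the c-kit+ WT libraries alone. Both calls were lost without several single libraries (highest adjusted p of 0.0916 and 0.115). The co-receptor gene Lrp5 was 19.4 to 21.5 TPM in the labelled libraries, below all 6 WT libraries at 22.1 to 29.4 TPM, and Lrp6 was 15.3 to 18.6 TPM over all 9 libraries. Fzd1, Fzd3 and Fzd8, like Dixdc1, had all 3 labelled libraries above all 6 WT libraries, at 0.83 to 1.76 TPM, 0.35 to 1.02 TPM and 0.11 to 0.14 TPM, and were under the filter. Fzd5, like Lrp5, was below all 6 WT libraries, so 3 of the 16 receptor genes lay above and 2 below. Over the 13962 genes given above the shares were 24% and 14%. Those genes reached 1 TPM in 3 or more libraries, which Fzd1, Fzd3 and Fzd8 did not, so 24% is no like share for these 3. Fzd4 was 1.55 to 2.09 TPM in c-kit- WT and at most 0.29 TPM in both c-kit+ groups (c-kit+ WT against c-kit- WT log2 fold change -1.20, SE 0.16, limma adjusted p = 0.00114), having passed the filter through the c-kit- WT libraries alone.

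Regulators inside the cell moved in both directions, taken over all roles. Of 6 tested genes listed under Dishevelled and its regulators, 3 were lower in the labelled IRF7-/- libraries than in c-kit+ WT and 0 higher. These were Ccdc88c, Csnk1e and Dvl1 (50.0%, beside 16.1% of all tested genes). Ccdc88c, which encodes a Dishevelled-binding protein, fell from 70.2 to 84.5 TPM in c-kit+ WT to 39.9 to 44.4 TPM in the labelled IRF7-/- libraries (log2 fold change -0.89, SE 0.09, limma adjusted p = 0.000525), and Csnk1e, a kinase that acts on Dishevelled, fell as well (-0.39, SE 0.10, limma adjusted p = 0.0168; adjusted p = 0.0532 without c-kit+ WT replicate 3). Of 16 tested genes of the destruction complex and its turnover 4 were higher and 3 lower, beside 31.9% and 16.1% of all tested genes. Amer1, which binds Apc and beta-catenin, rose from 2.64 to 3.52 TPM in c-kit+ WT to 5.20 to 6.16 TPM (log2 fold change 0.74, SE 0.13, limma adjusted p = 0.00436). Tnks, the tankyrase that marks Axin proteins for removal, rose by 0.48 (SE 0.09, limma adjusted p = 0.00535), while Rnf146, the ubiquitin ligase that follows it, was lower (-0.51, SE 0.09, limma adjusted p = 0.00334).

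In the nucleus 11 partners and 12 repressors were tested, with 2 higher and 2 lower (18.2% each), and 4 higher and 1 lower (33.3% and 8.33%), beside the same 31.9% and 16.1%. Tle2, a Groucho-type corepressor of TCF factors, was 1.97, 4.37 and 2.99 TPM in c-kit+ WT and 5.86, 6.24 and 7.86 TPM in the labelled IRF7-/- libraries (log2 fold change 0.93, SE 0.23, limma adjusted p = 0.0158; adjusted p = 0.0546 without labelled replicate 3). Its relative Tle3 went the other way, from 57.9 to 66.2 TPM to 35.8 to 40.5 TPM (log2 fold change -0.67, SE 0.08, limma adjusted p = 0.000871). Ctnnbip1, an inhibitor that binds beta-catenin and keeps it from TCF factors, was 11.5, 12.4 and 10.4 TPM in c-kit- WT and at most 2.75 TPM in all 6 c-kit+ libraries. It was lower in c-kit+ WT by a log2 fold change of -2.18 (SE 0.24, limma adjusted p = 0.000608), and the labelled libraries were lower than c-kit- WT by -2.72 (SE 0.18, limma adjusted p = 4.41e-05). Tle1 was also lower in c-kit+ WT than in c-kit- WT (-1.83, SE 0.11, limma adjusted p = 5.70e-05).

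Genes listed as Wnt targets did not share a direction between the c-kit+ groups, with 2 higher, 4 lower and 4 not passing of 10 tested (20.0% and 40.0%, beside 31.9% and 16.1% of all tested genes). Ascl2 was 1.10, 1.53 and 0.85 TPM in c-kit+ WT and 5.61, 3.57 and 3.95 TPM in the labelled IRF7-/- libraries (log2 fold change 1.31, SE 0.20, limma adjusted p = 0.00226), and Bambi rose by 0.61 (SE 0.17, limma adjusted p = 0.0226; at most 0.0755 with a library left out). Ccnd1, encoding cyclin D1, was 8.39, 11.2 and 8.37 TPM in c-kit+ WT and 0.71, 1.62 and 0.83 TPM in the labelled libraries (log2 fold change -2.34, SE 0.20, limma adjusted p = 0.000307). Jun, a transcription factor induced by many signals, was 262, 454 and 132 TPM and then 17.9, 5.54 and 50.5 TPM (log2 fold change -3.76, SE 0.77, limma adjusted p = 0.00759). Id2 (-2.43, SE 0.28, limma adjusted p = 0.000917) and Klf5 (-1.45, SE 0.27, limma adjusted p = 0.00490) were lower too. Myc was 83.9 to 117 TPM in c-kit+ WT and 107 to 136 TPM in the labelled libraries, ranges that overlapped. It was 46.6 to 62.0 TPM in c-kit- WT, below both (c-kit+ WT against c-kit- WT log2 fold change 0.86, SE 0.15, limma adjusted p = 0.00376). These genes answer to other pathways too, and Axin2 was followed among the 10 genes rather than in this list.

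**Figure D3:**
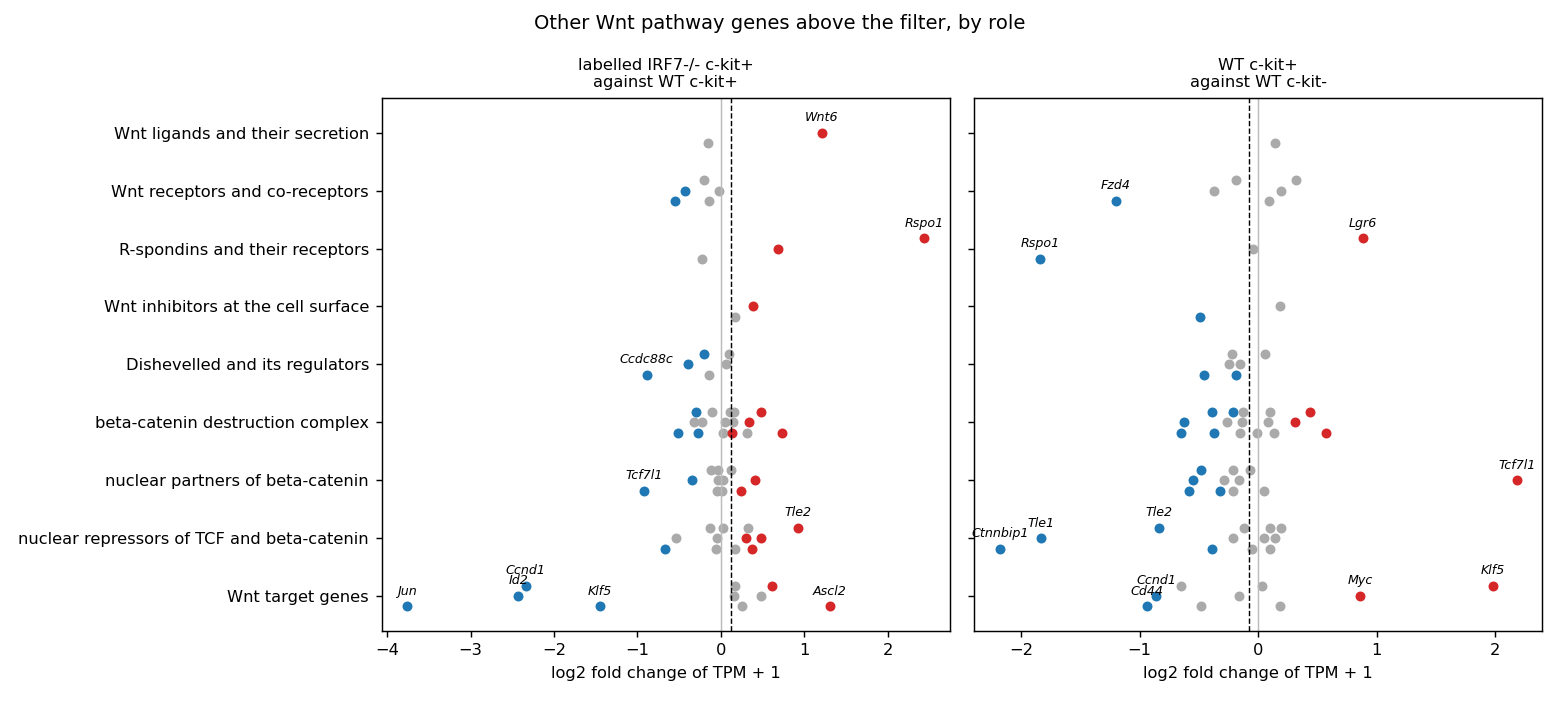
Log2 fold change of TPM + 1 (horizontal axes, different ranges) of the other Wnt pathway genes above the filter, in rows by role, for the 2 comparisons that share c-kit+ WT; red and blue points had a limma adjusted p under 0.05 and were higher or lower, grey points did not pass, the vertical spread within a row only separates points, and the dashed line is the median of all tested genes. On the left Rspo1 at 2.44 and Jun at -3.76 mark the ends, and passing points lie on both sides of 0 for the destruction complex, the nuclear partners and repressors and the target genes.

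The genes whose TPM followed Dixdc1 most closely across the 9 libraries, by Pearson's r on log2(TPM + 1) over 13962 genes, were Gm4961 (0.9980), Dync2li1 (0.9976), Zxdb (0.9962), Glb1l2 (0.9956) and Rnf128 (0.9953). All 5 had a higher mean in the labelled IRF7-/- libraries than in either WT group, as Glb1l2 with means of 0.357, 0.493 and 10.9 TPM. In all, 27 genes reached 0.99 and 527 reached 0.95. Axin2 ranked 86 with r of 0.99, while the other core genes lay between -0.67 for Gsk3b and 0.42 for Tcf7l2. The 9 points share 3 groups, so these coefficients mostly describe the step between the labelled libraries and the others, and they are given with no test.

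Among 18 protein-coding genes within 200 kb of the ends of Dixdc1, 3 (16.7%) also had all 3 labelled IRF7-/- libraries above all 6 WT libraries. They were Sdhd, Timm8b and Ppp2r1b. The 24.0% given above is not a like share, since it covers only genes that reached 1 TPM in 3 or more libraries. The 18 neighbours include genes at or near 0 in every library, such as Hspb2 and Tex12. Dlat, 2972 bases from Dixdc1, was 16.2, 18.3 and 17.8 TPM in c-kit+ WT and 24.9, 27.6 and 28.2 TPM in the labelled libraries (log2 fold change 0.60, SE 0.08, limma adjusted p = 0.00169). Ppp2r1b, encoding a scaffold subunit of protein phosphatase 2A, rose by 0.54 (SE 0.06, limma adjusted p = 0.000780), Timm8b by 0.54 (SE 0.07, limma adjusted p = 0.00106), Alg9 by 0.42 (SE 0.13, limma adjusted p = 0.0318; 0.0576 under quantile normalization) and Sdhd by 0.29 (SE 0.06, limma adjusted p = 0.00726). Pts was lower (-0.31, SE 0.05, limma adjusted p = 0.00226). The nearest gene, 2310030G06Rik at 174 bases, was at most 0.10 TPM in any library and was under the filter. None of the tested neighbours showed a difference as large as that of Dixdc1 on this scale. The neighbours under the filter were not tested, and near 0 TPM this scale leaves little room for a difference.

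**Figure D4:**
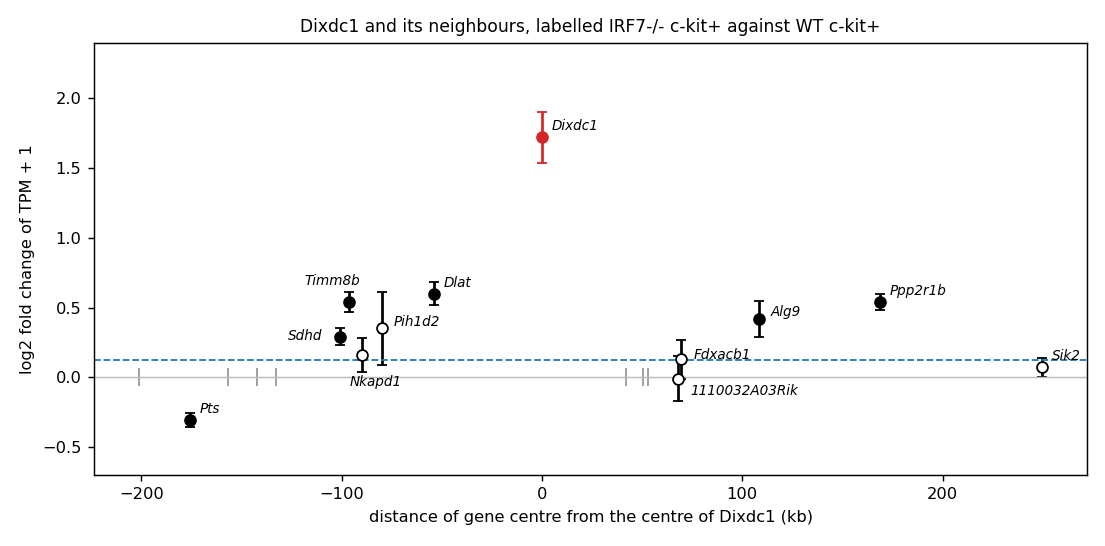
Log2 fold change of TPM + 1 between the labelled IRF7-/- and c-kit+ WT libraries (vertical axis) of Dixdc1 and the protein-coding genes within 200 kb of its ends, by the distance of their centres in kb (horizontal axis); bars are SE, filled points had a limma adjusted p under 0.05, grey ticks are genes under the filter and the dashed line is the median of all tested genes. Dixdc1 lies at 1.72 and the tested neighbours between -0.31 and 0.60.

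Markers of other cells and of maturation moved between the groups as well. In bulk RNA, fewer cells of a type and less RNA per cell cannot be told apart. The summed level of 12 neutrophil maturation genes was 11683 to 35555 TPM in c-kit- WT, 65228 to 122338 TPM in c-kit+ WT and 2107 to 3770 TPM in the labelled IRF7-/- libraries, with 11 of the 12 lower in the labelled libraries than in c-kit+ WT, beside 16.1% of all tested genes. Cxcr2, among these 11, passed the filter through the c-kit+ WT libraries alone. Tcf7 and Lef1 are known from T cells, and Lef1 was near 0. Of 12 T cell markers, whose sum was 4.10 to 9.09 TPM in c-kit- WT, 3.84 to 7.58 TPM in c-kit+ WT and 11.3 to 12.8 TPM in the labelled libraries, Bcl11b (log2 fold change 1.77, SE 0.19, limma adjusted p = 0.000690) and Lck (1.01, SE 0.30, limma adjusted p = 0.0310; at most 0.0929 with a library left out; under 1 TPM in all c-kit+ WT libraries) were higher, and 7 were under 1 TPM in every library, Cd3e among them. These were 2 of 4 tested (50.0%, beside 31.9% of all tested genes). Cd5 (-0.47, SE 0.21, limma adjusted p = 0.108) and Il7r (0.07, SE 0.38, limma adjusted p = 0.888) did not pass. Against c-kit- WT, Cd5 was lower in the labelled libraries by at least 1 on the log2 scale. The sum of 10 endothelial and stromal markers was 131 to 162 TPM in c-kit- WT, 61.4 to 72.0 TPM in c-kit+ WT and 140 to 169 TPM in the labelled libraries, led by Pecam1 and Lepr, with 4 of 4 tested genes higher in the labelled libraries than in c-kit+ WT, beside 31.9% of all tested genes. Cxcl12, among these 4, passed the filter through the labelled libraries alone, so its test had to come out as a difference. The endothelial genes Cdh5, Kdr and Tek were at most 0.24 TPM in any library. The sum of 8 monocyte and macrophage genes was 4195 to 4825, 2187 to 2438 and 2771 to 3342 TPM in the 3 groups. The sum of 8 stem and progenitor genes was 428 to 488, 449 to 482 and 559 to 609 TPM. Between the c-kit+ groups 4 of the 8 were higher in the labelled libraries (50.0%, beside 31.9% of all tested genes). These were Hoxa10, Kit, Meis1 and Hoxa9. Mecom alone was lower (12.5%, beside 16.1%), listed at 0 in the 3 labelled libraries and at 32.9 to 34.5 TPM in c-kit+ WT. It passed the filter through the c-kit+ WT libraries alone, so its test had to come out as a difference. B cell, NK cell, erythroid and megakaryocyte sums lay between 0.230 and 59.4 TPM. The part of these in the differences of Dixdc1, Axin2 and the other pathway genes was not tested.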

How the data were processed

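A single table, deposited by the authors, gives TPM of 55536 genes in 9 libraries, with their alignment, quantification and scaling already done. The unit was inferred from the values, since totals differ little between libraries (987468 to 992231) and, over 10442 genes with 1 transcript, the smallest nonzero value fell with length (slope -0.827 on log10 scales). Aligner, build and strand setting are not given in the sources used here. All identifiers matched GENCODE M21, used for positions. Groups and replicate numbers came from the sample labels.

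For each comparison the 6 libraries concerned were fitted with limma 3.58.1 in R 4.3.3 (lmFit, eBayes with trend) on log2(TPM + 1), for genes that reached 1 TPM in 3 or more of the 6, with Benjamini-Hochberg adjustment over all genes tested. Log2 fold changes are of the first-named group against the second. The function was tested on simulated data. Named were all 10 genes, their paralogs, up to 12 other pathway genes per comparison with the largest differences among those that passed, Irf7, Kit, and the 5 genes most correlated with Dixdc1. Neighbours within 200 kb, genes named for sets in which all labelled libraries lay above or below, and abundant or marker genes given as context were chosen after their values were seen, as were other members named from a list's passing genes. The 10 genes and all lists were chosen with earlier results of these data known. Alternatives were no filter, 5 TPM, a pseudocount of 0.1, quantile normalization, centring on the median gene, all 9 libraries together, a replicate block and each library left out.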

Additional observations from a re-analysis of the deposited data

How the results depend on the processing

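Dixdc1 and Axin2 were higher in the labelled libraries in each alternative that tested them, but they passed the filter only through those libraries, so their adjusted p says nothing of stability. With a filter of 5 TPM neither was tested, and 1 of the 10 genes passed between the c-kit+ groups instead of 3. Without each library in turn the log2 fold change of Dixdc1 ran from 1.63 to 1.85 against c-kit+ WT and from 1.78 to 1.97 against c-kit- WT. Between the WT groups, 2 genes passed instead of 4 when centred on the median gene. Against c-kit- WT, 3 passed in the labelled libraries instead of 6 under quantile normalization and when centred, and 3 to 5 without each library. These counts include Dixdc1 and Axin2, and 6858 to 7516 of all genes passed without each library. Across all genes, 1015 passed both thresholds between the c-kit+ groups with the 5 TPM filter and 1548 without it, fewer genes being tested. The cause of the other changes was not tested.

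Values with no call that changed sign were Apc between the c-kit+ groups (-0.0079 under quantile normalization, -0.0056 centred, -0.023 to 0.14 without each library, the lowest without labelled replicate 2) and Dvl3 there (-0.022 and -0.026). Between the WT groups Lgr4 turned to 0.031 and 0.11 and Gsk3a to 0.038 and 0.0089 under these scalings. Of the labelled libraries against c-kit- WT, Gsk3a turned to 0.079 and 0.074 under the scalings, and ran from -0.018 to 0.0049 without each library. Tle2 ran from -0.023 to 0.16, the lowest without labelled replicate 3.

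With the replicate number as a block 3, 4 and 4 of the 10 genes passed in the 3 comparisons (the labelled libraries against c-kit+ WT, the WT groups, and the labelled libraries against c-kit- WT), and 29, 24 and 38 of the other pathway genes against 31, 27 and 43. The first and last counts of the 10 include Dixdc1 and Axin2, which passed the filter only through the labelled libraries. Without the block, the shares of all tested genes higher and lower were 31.9% and 16.1%, 14.0% and 27.6%, and 30.7% and 28.7%, in the same order. Dixdc1 had limma adjusted p of 0.00340 and 0.00121 with the block. Deviations of libraries with the same number correlated between -0.07 and 0.24, and not every library correlated best with its own number, so the samples were taken to share only a number. TPM hold no depth, so the precision of low values such as those of Dixdc1, Axin2, Tcf7, Tcf7l2 and Lef1 is known only from 3 libraries a group.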

Other observations

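Cep112, 59734 bases from Axin2 on chromosome 11 and chosen after its values were seen, had a pattern like that of Axin2. It was 0.33, 0.05 and 0.03 TPM in c-kit- WT, 0.00, 0.47 and 0.02 TPM in c-kit+ WT, and 1.52, 1.99 and 1.76 TPM in the labelled IRF7-/- libraries. The log2 fold change between the c-kit+ groups was 1.26 (SE 0.20, limma adjusted p = 0.00277), and the gene passed the filter only through the labelled libraries. The other protein-coding gene within 200 kb of Axin2, E030025P04Rik, was listed at 0 in all 9 libraries.

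Apc2, a paralog of Apc, was at most 0.08 TPM in 8 libraries and 0.97 TPM in c-kit+ WT replicate 3, the same library that had the highest Dixdc1 value among the 6 WT libraries. Dact3, which encodes a Dishevelled-binding protein, was 0.26 to 0.54 TPM in the WT libraries and 1.14, 0.82 and 1.23 TPM in the labelled IRF7-/- libraries. Wnt9b was at most 0.08 TPM in the WT libraries and 0.44, 0.50 and 0.55 TPM in the labelled ones. Neither was tested, since both were under the filter.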
